A study of Mus musculus with 122 samples.

Results

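LCL is a chimeric protein made of the N terminus of CTCFL, the zinc fingers of CTCF and the C terminus of CTCFL. The comparison described here sets the RNA of cells that lacked CTCF protein and expressed LCL (LCL ID, 2 libraries) against the RNA of the same line without CTCF protein and without LCL (LCL I, 2 libraries). These 4 libraries are among 38 RNA-seq libraries and 122 samples in all, and the genes described are those that changed between them, split by what the loss of CTCF alone had done to each gene. A gene was counted as rescued when it changed with CTCF loss and changed back with LCL, and as newly changed when it was called between ID and I but not between I and U, which does not mean that it was level between I and U.

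All groups were mouse embryonic stem cells of the E14Tg2a line (129/Ola) grown without feeders in serum, LIF and the 2i inhibitors CHIR99021 and PD0325901. All cells carried an auxin-inducible degron (AID) and eGFP on both alleles of Ctcf, the plant F-box protein Tir1 at Rosa26, and a doxycycline-inducible transgene with a FLAG tag and mRuby2 at the Tigre locus. Clones were selected for each transgene, and the number of clones behind each line is not given in the sources used. Untreated cells are U, cells given indole-3-acetic acid (IAA) are I, cells given doxycycline (Dox) are D and cells given both are ID. The sample labels give 24 h of treatment and the treatment protocol 2 days. The other lines carried full-length CTCF, full-length CTCFL, or CLC, the reverse chimera with the CTCFL zinc fingers between the CTCF termini. ID differs from I in Dox as well as in LCL, and no line without a transgene was given Dox. Effects of LCL and of Dox itself therefore cannot be told apart, and changes described as with LCL are changes between ID and I. Libraries were replicates by label, and nothing says whether they came from separate cultures, so each p-value measures the spread between libraries, which may be technical.

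CTCF binds DNA through an array of zinc fingers and stops cohesin as it extrudes chromatin loops, which places loop anchors and domain boundaries at its sites, and it also binds close to the start sites of many genes. CTCFL, also called BORIS, is its paralog from the male germ line, with a similar zinc finger array and unrelated termini. Genes near CTCF sites can lose or gain transcription when CTCF is removed, and LCL joins the zinc fingers of CTCF to other termini, which can themselves bear on where a protein binds.

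Depth in the LCL line ran from 20497827 to 49716771 reads, with ID replicate 2 the shallowest library and ID replicate 1 the deepest. Replicates differed by more than sampling noise in every LCL group. Between 4.81% and 5.32% of each LCL library was taken up by its 10 most abundant genes. Of 52459 genes in the table, 15274 had a mean of at least 10 normalised counts in the LCL line and were tested. A gene was called when limma gave it a Benjamini-Hochberg adjusted p under 0.01 and its log2 fold change was above 1 or below -1, on the scale of log2(normalised count + 1), which understates the change of low genes. The stem cell markers Pou5f1, Nanog, Sox2, Zfp42, Esrrb, Klf4 and Tfcp2l1 gave no call in 7 of 7 genes tested by limma, nor by edgeR or DESeq2 on reads, although 3 were higher and 3 lower in ID at an unadjusted p under 0.05, with a summed normalised count of 171200 and 167600 in ID against 157000 and 163900 in I. Sums of the other marker lists in ID against I were 835 and 1044 against 875 and 862 for primitive endoderm, 469 and 476 against 376 and 378 for trophoblast, 439 and 537 against 815 and 773 for fibroblasts, and 6409 and 6745 against 4933 and 5627 for neural cells. Among those lists 2 genes were called, Pdgfra higher (log2 fold change 1.39) and Thy1 lower (-1.19, and -0.92 and not called without ID replicate 2).

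The transgene was visible in the Ctcfl row, which collects reads from the CTCFL termini of LCL as well as from endogenous Ctcfl. Ctcfl had 33.8 and 23.5 normalised counts in I and 1120 and 1225 in ID, so that the groups did not overlap (log2 fold change 5.33 ± 0.22 SE, limma adjusted p = 1.7e-12, n = 2 libraries per group). It had 36.5 and 27.2 in U and 384 and 416 in D, so that the rise with Dox was larger without CTCF protein than with it (difference of the log2 fold changes 1.70). Ctcf had 7792 and 7942 normalised counts in I, 7194 and 6964 in ID and 9309 and 7829 in U, and was not called (log2 fold change of ID over I -0.15 ± 0.09 SE, adjusted p = 0.19). IAA removes the CTCF protein and not its RNA, and any reads from the LCL zinc fingers would fall in this row. No rise with Dox was seen in it, with 6705 and 7102 in D, so the Ctcf row does not check the labels.

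In total, 1296 of 15274 genes (8.49%) were called between ID and I. Of these, 617 (4.04%) were higher with LCL and 679 (4.45%) were lower. CTCF loss alone had called 1464 genes, 649 (4.25%) higher and 815 (5.34%) lower in I than in U. Of the genes that fell in I, 225 rose in ID, 575 were not called between ID and I and 15 fell further. Of the genes that rose in I, 139 fell in ID, 491 were not called and 19 rose further. Thus 364 genes were rescued and 898 were newly changed, 373 of them higher and 525 lower with LCL. Of the newly higher genes, 183 were also called above U in ID, and of the newly lower genes 265 were called below it, and the others were not called apart from untreated cells. Their median log2 differences between I and U ran the other way, at -0.40 and 0.36, and between ID and U they were 1.15 and -1.15. The 2 comparisons share the I libraries, so a chance deviation of those libraries moves a gene in I and back in ID, and its size was not tested.

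**Figure D1:**
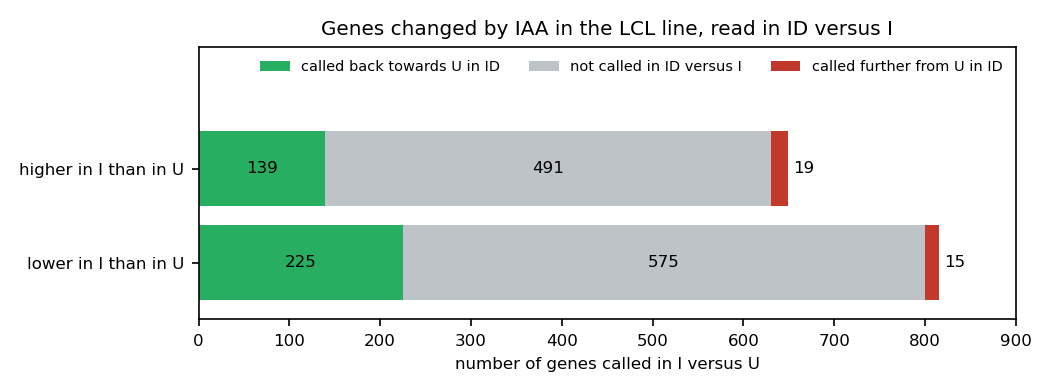
Number of genes (x axis) that fell or rose in LCL I relative to LCL U (y axis), with each bar divided by the call between LCL ID and LCL I. Of 815 genes that fell with IAA, 225 rose again with LCL, 575 were not called and 15 fell further, and of 649 that rose with IAA the same counts were 139, 491 and 19.

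Most restored genes lay within 1 log2 unit of the untreated level in ID. They were chosen for changes above 1 log2 unit in opposite directions that share the I libraries. That choice favours a level near U, so the shares below are a description. Of the 225 genes that fell in I and rose in ID, 192 (85.3%) lay within 1 log2 unit of U in ID and 25 were called between ID and U, 19 of them still below U and 6 above it. Of the 139 that rose in I and fell in ID, 125 (89.9%) lay within 1 log2 unit of U and 12 were called, 9 of them below U and 3 above it. Across all genes, 1911 (12.5%) were called between ID and U, more than the 1464 called between I and U. For comparison, 291 genes (1.91%) were called between D and U, where LCL was expressed beside endogenous CTCF.

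FLAG ChIP-seq peaks of the same line place LCL on DNA near many of these genes. Peaks in both replicates of LCL ID made 34715 sites, and 52.3% of the 14963 tested genes with an annotated start had one within 3 kb of a start site. Among the genes that fell in I and rose in ID the share was 77.3% (170 of 220), against 60.3% of the genes that fell and were not called in ID, 65.9% of the newly higher genes, 46.3% of the newly lower genes and 42.8% of the genes that rose in I and fell in ID. Sites of full-length CTCF in CTCF ID cells were at 61.4% of the promoters of the genes that fell and rose again and at 31% of all. Sites of CTCFL in CTCFL ID cells were at 67.7% and 41.2%. The median fold enrichment of LCL ID sites at the fell-and-restored promoters was 5.96 and 5.90 in the replicates, and at promoters of all tested genes it was 5.12 and 5.07. These shares describe the sets and were not compared by a test, and since the peak lists hold no read numbers, the ChIP-seq depth is unknown.

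**Figure D2:**
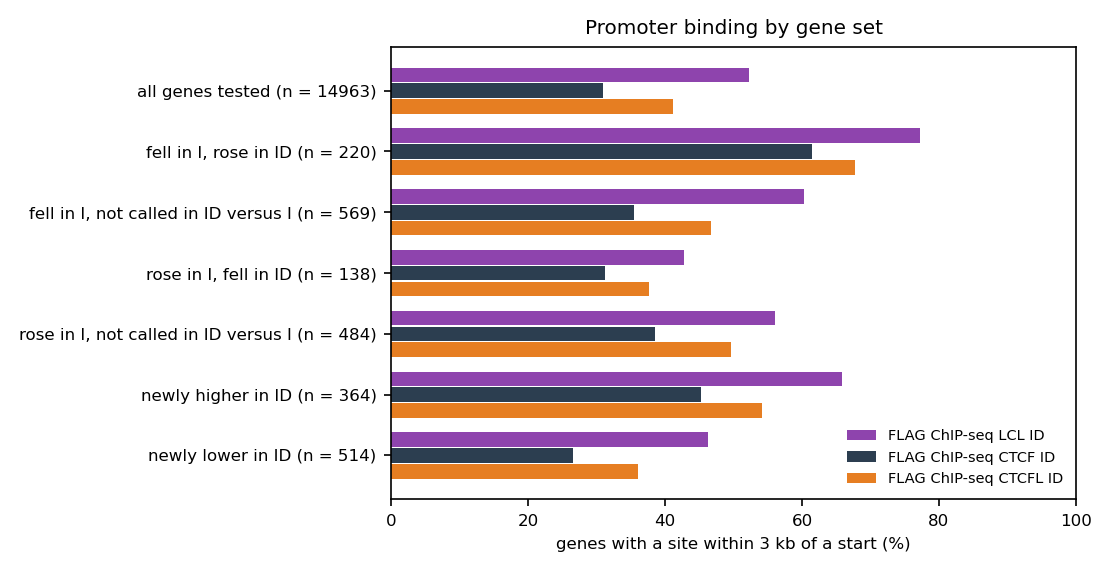
Share of genes (x axis, percent) with a FLAG ChIP-seq site within 3 kb of an annotated start, for LCL ID, CTCF ID and CTCFL ID sites, in each set of genes and in all genes tested. Genes that fell in I and rose in ID had the highest share for each of the 3 proteins, 77.3%, 61.4% and 67.7%.

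The letters below show what lies under LCL sites at promoters of genes that changed. Each is 60 bases of GRCm38/mm10 around the match nearest the peak summit to AGNNGGCNC, in capitals, written 5′ to 3′ on the strand that holds the match. AGNNGGCNC (N is any base) is a loose form of the core of the CTCF motif. No stretch was scored against the full motif, so the capitals need not mark the best fit to it. Genes and start sites are those of GENCODE vM21. The 4 genes Thsd4, Rnf144a, Hddc3 and Ppa2 fell in I and rose in ID, Rnf43 and C1ql4 were newly higher, and Dazl was newly lower. All but the Hddc3 window, of which 7 bases are exonic, lie outside annotated exons.
Thsd4, chr9:60522099-60522158, plus strand: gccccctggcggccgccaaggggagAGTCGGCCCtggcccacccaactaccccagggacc
Rnf144a, chr12:26415311-26415370, minus strand: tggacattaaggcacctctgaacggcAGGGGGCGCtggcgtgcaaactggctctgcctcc
Hddc3, chr7:80343051-80343110, plus strand: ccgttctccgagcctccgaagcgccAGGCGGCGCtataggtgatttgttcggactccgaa
Ppa2, chr3:133310048-133310107, plus strand: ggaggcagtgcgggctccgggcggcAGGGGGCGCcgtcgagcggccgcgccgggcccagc
Rnf43, chr11:87662568-87662627, minus strand: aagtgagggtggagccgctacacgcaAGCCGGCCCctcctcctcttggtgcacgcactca
C1ql4, chr15:99088493-99088552, minus strand: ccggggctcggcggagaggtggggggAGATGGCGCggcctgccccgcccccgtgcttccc
Dazl, chr17:50292901-50292960, minus strand: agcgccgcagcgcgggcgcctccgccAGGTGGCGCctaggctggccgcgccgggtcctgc

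Upstream of the start, the middle of the match lay 82 bases away at Thsd4, 86 at Rnf144a, 64 at Hddc3, 45 at Ppa2, 125 at Rnf43, 705 at C1ql4 and 38 at Dazl, where the window sits inside the span of a longer transcript. Each of these 7 genes also had a CTCF site in CTCF ID cells and a CTCFL site in CTCFL ID cells within 3 kb of a start. Whether those sites overlap the printed windows was not examined. The match, searched on both strands within 50 bp of the summit, was found at 17.4% of all LCL ID sites, at 20.7% of those at promoters of genes that fell and rose again (35 of 169) and at 17.4% of those at promoters of newly lower genes. Windows of 101 bp at annotated gene starts held it in 10.8% of 14946 cases. A match is a string of letters and does not by itself mark a bound base.

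The genes with the largest return were nearly silent in I. Thsd4, which encodes a thrombospondin-repeat protein of microfibrils, had 16 and 22.8 normalised counts in U, none in either I library and 33.5 and 35.3 in ID. With 0 reads in I and 82 in ID, it was at least 32.6-fold higher in ID when 3 reads are allowed over the I group, and the 95% exact counting interval of the ratio starts at 25.9. Olfr287, an olfactory receptor gene, likewise had 0 reads in I and 75 in ID, at least 29.8-fold higher by the same allowance, with an interval from 23.7. Olfactory receptors form a large family with close copies, so the source of these reads is uncertain.

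Rnf144a, an E3 ubiquitin ligase, had 79.8 and 84.0 normalised counts in U, 17.5 and 5.66 in I and 290 and 326 in ID (log2 fold change of ID over I 4.80 ± 0.35 SE, limma adjusted p = 2.1e-09). Its ID libraries were above those of U as well as those of I, and ID over U was called (1.90). Nudt17, a Nudix hydrolase, had 50.2 and 74.1 in U, 4.66 and 3.24 in I and 115 and 133 in ID (4.67 ± 0.35 SE, adjusted p = 2.9e-09). Mrpl23, a protein of the large mitochondrial ribosomal subunit, had 113 and 102 in U, 9.90 and 4.85 in I and 140 and 170 in ID (4.28 ± 0.32 SE, adjusted p = 3.0e-09). For Nudt17 and Mrpl23, I stood apart from both other groups, and ID over U was not called.

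Hddc3, a metal-dependent hydrolase of the HD-domain family, had 67.3 and 88.9 normalised counts in U, 13.4 and 4.04 in I and 158 and 123 in ID (4.04 ± 0.39 SE, adjusted p = 8.7e-08). Mob3b, of the MOB kinase activator family, had 112 and 168 in U, 1.75 and 11.3 in I and 80.1 and 134 in ID (4.17 ± 0.47 SE, adjusted p = 5.9e-07). In both genes the ID and I libraries did not overlap, and ID over U was not called. The 3 others of the 10 largest returns had 1 read over both I libraries. The ID over I ratio of reads was 78.8 for the integrin Itga8 (95% exact counting interval 13.7 to 3160), 74.0 for the Wnt pathway inhibitor Nkd2 (12.8 to 2970) and 54.9 for the engulfment adaptor Gulp1 (9.37 to 2210). Gulp1 lost its call without ID replicate 2 (3.60, adjusted p = 0.0122). These intervals cover counting error only.

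Restored genes with more reads showed the same order of groups with tighter spread. The genes of this and the next paragraph were chosen for their level or after their values were seen. App, the amyloid precursor protein, had 397 and 428 normalised counts in U, 34.4 and 50.1 in I, 1040 and 1113 in D and 431 and 572 in ID (log2 fold change of ID over I 3.55 ± 0.18 SE, limma adjusted p = 2.3e-11). ID and U libraries of App lay side by side, while D was called above U (1.38). Ppa2, the mitochondrial inorganic pyrophosphatase, had 1066 and 945 in U, 70.5 and 71.2 in I and 819 and 706 in ID (3.41 ± 0.13 SE, adjusted p = 7.5e-13). Traf6, a ubiquitin ligase of innate immune signalling, had 638 and 564 in U, 59.99 and 48.5 in I and 436 and 460 in ID (3.03 ± 0.16 SE, adjusted p = 2.3e-11). Ppa2 and Traf6 remained below both U libraries in ID, and neither was called between ID and U.

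Ttc5 and Iqgap2 followed the same pattern with log2 fold changes of ID over I of 2.87 ± 0.14 SE and 3.34 ± 0.22 SE. Of the others chosen, Gfm1, the mitochondrial elongation factor G, had 623 and 627 normalised counts in I and 2398 and 2524 in ID (1.98 ± 0.10 SE), below the 3979 and 3335 of U. Mrps2, of the small mitochondrial ribosomal subunit, had 1131 and 1475 in I and 3240 and 2924 in ID (1.25 ± 0.11 SE), again below the 4645 and 4697 of U. Ndufb7, a subunit of respiratory complex I, had 863 and 1055 in I, 2610 and 2489 in ID and 2457 and 2686 in U (1.42 ± 0.10 SE), a full return. Atp5k of ATP synthase rose by 1.32 ± 0.11 SE. The endosomal sorting protein Vps36 had 480 and 594 in I, 3279 and 2956 in ID and 1802 and 1668 in U (2.54 ± 0.11 SE), and the Golgi protein Tex261 had 644 and 661 in I, 1711 and 2059 in ID and 2556 and 3011 in U (1.52 ± 0.11 SE). ID exceeded U for Vps36 and stayed below it for Tex261, without a call between ID and U for either.

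**Figure D3:**
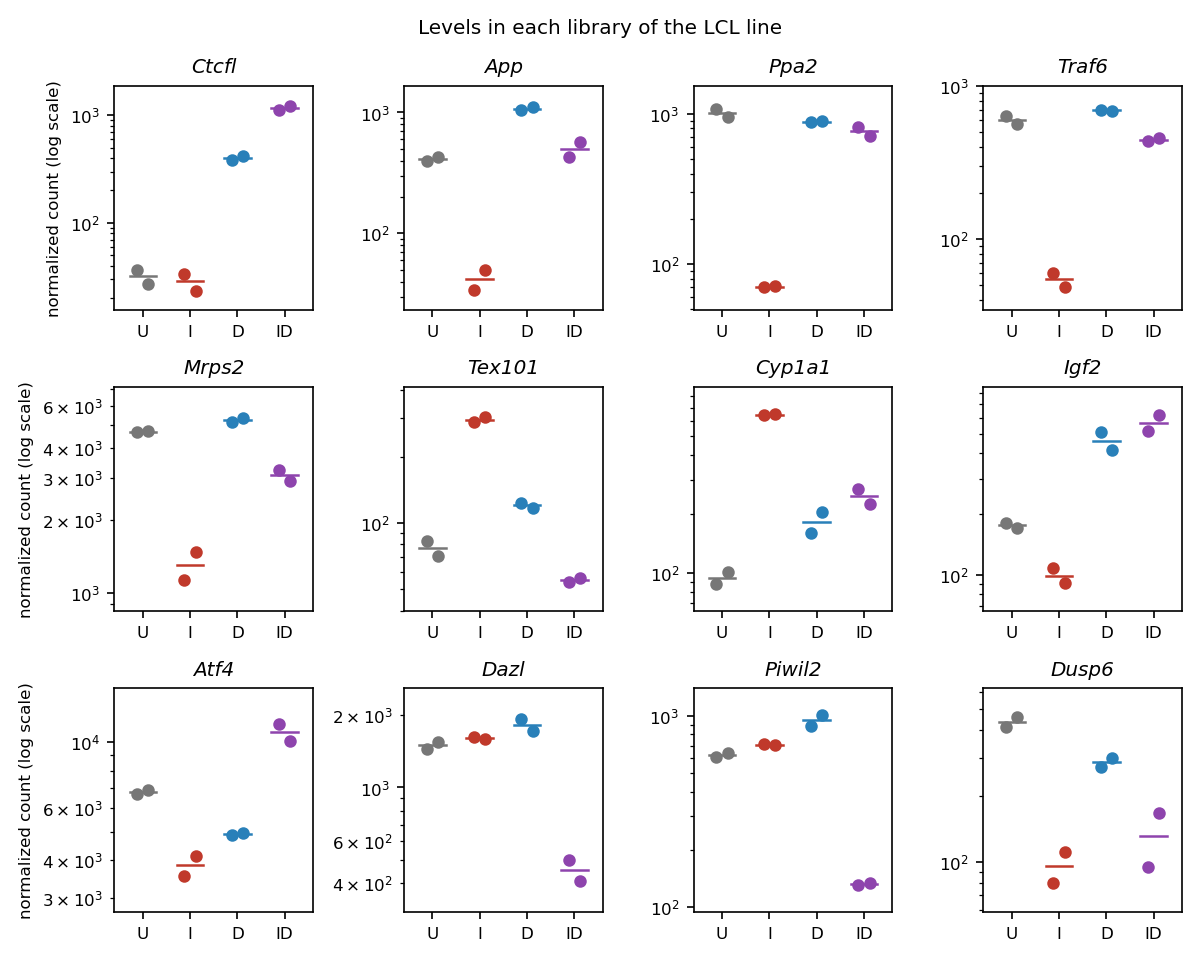
Normalised counts (y axis, log scale) of 12 genes in each LCL library by condition (U, I, D, ID, x axis), with 1 point per library and a line at the mean. Ctcfl is highest in ID, App, Ppa2, Traf6 and Mrps2 fall in I and return in ID, Tex101 and Cyp1a1 rise in I and fall back, Igf2 and Atf4 are highest in ID, Dazl and Piwil2 are lowest in ID, and Dusp6 stays low in ID with 94.2 and 167.

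Lef1, a transcription factor of the Wnt pathway, had 28.5 and 23.5 normalised counts in U, 4.08 and 2.43 in I and 25.3 and 24.0 in ID (log2 fold change of ID over I 2.62 ± 0.56 SE, limma adjusted p = 0.0007). Lin28a, an RNA-binding protein that blocks let-7 maturation, had 1791 and 1902 in U, 808 and 742 in I and 1568 and 1684 in ID (1.07 ± 0.10 SE, adjusted p = 6.6e-08). The ID and I libraries did not overlap in either, and neither was called between ID and U. Among the clustered protocadherins, cell adhesion genes whose promoters bind CTCF, 5 of 8 tested were called lower in I than in U, where 5.34% of all genes were, and 1, Pcdhga11, was called higher in ID than in I, where 4.04% of all genes were. Pcdhga11 had 44.5 and 46.3 in U, 1.16 and 0 in I and 10.6 and 7.06 in ID. Its ratio of ID to I reads was 13.7 (95% exact counting interval 3.39 to 120), and it stayed called below U (-2.26). The call of Pcdhga11 was lost without ID replicate 1 (2.46, adjusted p = 0.0194) and without I replicate 2 (2.16, adjusted p = 0.0126).

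The immediate early genes Egr1 and Myc and the stress gene Chac1 also fell in I and rose in ID. Egr1, a transcription factor induced by growth signals, had 140 and 162 normalised counts in U, 25.6 and 46.1 in I and 131 and 143 in ID (log2 fold change of ID over I 1.96 ± 0.25 SE, limma adjusted p = 2.4e-06). Myc had 460 and 529 in U, 71.6 and 131 in I and 246 and 185 in ID (1.13 ± 0.23 SE, adjusted p = 0.00056) and was still called below U (-1.21). In ID Egr1 lay near U and Myc below it. Between D and U, Egr1 was called higher (1.55) and Myc lower (-1.85). The change of Egr1 from I to ID did not differ by call from that from U to D, so it also rose with Dox where CTCF was present. The Myc call was lost without ID replicate 1 (0.93, adjusted p = 0.0157) and without I replicate 1 (0.70, adjusted p = 0.0231). Chac1, a glutathione-degrading enzyme, had 264 and 396 in U, 66.4 and 84.9 in I and 219 and 194 in ID (1.44 ± 0.21 SE). Steap1, a metalloreductase that the study singled out, had 38.8 and 59.3 in U, 25 and 5.66 in I and 135 and 90.4 in ID (3.08 ± 0.45 SE, adjusted p = 1.5e-05), with ID above U in each library and no call between ID and U.

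Most genes that fell with CTCF loss were not called higher in ID than in I. Of the 575 not called between ID and I, 98 passed the p threshold toward U with a log2 change under 1. Of the others, 26 passed it away from U and 451 did not pass it, and the median log2 difference of the 575 between ID and I was 0.33. In ID, 362 of the 575 were called below U, and the others were called apart from neither U nor I. Dusp6, a phosphatase that limits ERK signalling, had 415 and 458 normalised counts in U, 79.8 and 111 in I and 94.2 and 167 in ID (0.41 ± 0.23 SE, limma adjusted p = 0.16). Spry4, another ERK feedback inhibitor, had 123 and 132 in U, 6.41 and 10.5 in I and 9.42 and 26.8 in ID (0.88 ± 0.44 SE, adjusted p = 0.11). Spry4 was called without ID replicate 1 (1.59, adjusted p = 0.00674). Dusp6 and Spry4 were both called below U in ID.

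Trappc9, a component of a vesicle tethering complex, had 1567 and 1792 normalised counts in U, 298 and 287 in I and 238 and 261 in ID (-0.23 ± 0.12 SE, adjusted p = 0.13). Ddx58, the RNA sensor RIG-I, had 927 and 876 in U, 201 and 218 in I and 167 and 177 in ID (-0.28 ± 0.14 SE, adjusted p = 0.11). Bhlhe40, a circadian transcription factor, had 1174 and 1147 in U, 508 and 601 in I and 595 and 682 in ID (0.20 ± 0.12 SE, adjusted p = 0.17). For these 3 genes the ID libraries lay near those of I and far from those of U. Of the 491 genes that rose in I and were not called in ID, 66 passed the p threshold toward U, 19 away from U and 406 did not pass it, with a median log2 difference of -0.27.

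Of the 139 genes that rose with CTCF loss and fell with LCL, the 10 with the largest falls are given first. Uts2r, the urotensin receptor, had 34.2 and 21 normalised counts in U, 248 and 203 in I and 27.7 and 2.82 in ID (log2 fold change of ID over I -4.43 ± 0.60 SE, limma adjusted p = 5.6e-06). Serpinf1, a secreted serpin, had 42.2 and 35.8 in U, 252 and 226 in I and 16.5 and 8.47 in ID (-4.22 ± 0.41 SE, adjusted p = 1.0e-07). Serpinf1 was called below U in ID, and Uts2r was not. The others with the largest falls were the protease Htra3 (-3.98), the elastic fibre protein Fbln5 (-2.77), the reductase Cyb5r2 (-2.76), the iron regulator Hfe (-2.74), the glycosyltransferase B4galnt2 (-2.63), Lrrc39 (-2.63), the piRNA factor Mael (-2.61) and the anion exchanger Slc4a1 (-2.53). Lrrc39 was not called without ID replicate 2 (-1.86, adjusted p = 0.0541) and without I replicate 1 (-2.36, adjusted p = 0.039) or I replicate 2 (-2.89, adjusted p = 0.0129).

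Bcam, a laminin receptor, had 1197 and 1279 normalised counts in U, 3292 and 3209 in I and 709 and 716 in ID (-2.19 ± 0.09 SE, limma adjusted p = 1.8e-12). Lmna, which encodes lamins A and C, had 470 and 520 in U, 1460 and 1462 in I and 539 and 716 in ID (-1.23 ± 0.13 SE, adjusted p = 3.2e-07). Bcam ended below U and Lmna above it, with no call between ID and U for either. Cyp1a1, a monooxygenase induced through the aryl hydrocarbon receptor, had 87.8 and 101 in U, 643 and 646 in I and 270 and 226 in ID (-1.38 ± 0.18 SE, adjusted p = 4.1e-06). It remained called above U (1.39), a partial return. Of 8 aryl hydrocarbon receptor targets tested, 3 were called higher in ID than in I and 1 lower, where 4.04% and 4.45% of all genes were. Among those higher was the quinone reductase Nqo1 with 2396 and 2323 in I and 6092 and 5576 in ID (1.3 ± 0.09 SE).

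Some genes that CTCF loss had left unchanged by the call were higher in ID than in I. Of the 373 genes, 15 reached the mean of 10 normalised counts only through the ID libraries, among them Epn3, Igf2os, C1ql4, Arhgap27os2, Rnf43, Gcm1 and Igsf11, so that these had to be high in ID to be tested at all and their calls are a description. Of the genes that fell in I and rose in ID, 2 passed in this way, Olfr287 among them, and 6 newly lower genes, such as Acsbg1, and 1 that rose in I and fell in ID passed only through the I libraries. The largest rise among the newly higher genes was that of Ctcfl itself, described above. Of the other 9, Epn3 had 1 read in I and 98 in ID (ratio 117, 95% exact counting interval 20.5 to 4670), Igf2os 3 and 79 (31.4, 10.4 to 156), C1ql4 2 and 71 (42.4, 11.3 to 357) and Arhgap27os2 1 and 51 (60.9, 10.4 to 2450). Rapgef4, an exchange factor for Rap activated by cyclic AMP, had 1.14 and 4.32 normalised counts in U, 1.75 and 4.04 in I, 108 and 132 in D and 94.2 and 77.7 in ID (log2 fold change of ID over I 4.54 ± 0.57 SE, limma adjusted p = 2.7e-06). Rapgef4 was high in all 4 libraries given Dox and low in the 4 others. Cebpa, a transcription factor of myeloid and adipose differentiation, had 5.24 and 10.5 in I, 34.3 and 36.8 in D and 117 and 113 in ID (3.77 ± 0.47 SE, adjusted p = 2.3e-06).

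Rnf43, a ubiquitin ligase that removes Wnt receptors from the membrane, had 9.12 and 12.3 normalised counts in U, 4.66 and 0.81 in I and 35.3 and 66.4 in ID (3.95 ± 0.69 SE, limma adjusted p = 0.00011). Gcm1, a placental transcription factor, had 2.91 and 0 in I and 43.6 and 24.0 in ID (4.08 ± 1.07 SE), and Igsf11, an adhesion protein, 5.24 and 0 in I and 27.1 and 38.1 in ID (3.73 ± 0.92 SE). Without I replicate 2 the calls of Gcm1 (3.09, adjusted p = 0.0345), Igsf11 (2.41, adjusted p = 0.0326) and Igf2os (3.68, adjusted p = 0.0124) were lost, and without I replicate 1 that of Arhgap27os2 (3.72, adjusted p = 0.0122).

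At higher read numbers, Atf4, the transcription factor of the integrated stress response, had 6692 and 6911 normalised counts in U, 3547 and 4147 in I and 11440 and 10080 in ID (1.49 ± 0.09 SE, limma adjusted p = 3.2e-10). Ass1, argininosuccinate synthase, had 8205 and 8954 in U, 7518 and 7883 in I and 21870 and 20670 in ID (1.47 ± 0.09 SE, adjusted p = 1.3e-10). The genes of the stress response did not move together. Of 26 tested, 3 were called higher in ID than in I and 5 lower, where 4.04% and 4.45% of all genes were, with a median log2 difference of -0.26 against 0.0039 over all genes. The serine synthesis enzyme Phgdh had 2375 and 2363 in I and 802 and 775 in ID (-1.59 ± 0.10 SE, adjusted p = 2.2e-10), and the amino acid transporter Slc7a5 had 6867 and 6561 in I and 2894 and 3576 in ID (-1.06 ± 0.11 SE). Slc7a5 was not called without ID replicate 1 (-0.91, adjusted p = 9.7e-06).

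Of 25 immediate early genes tested, 5 were called higher and 1 lower in ID than in I, where 4.04% of all genes were called higher and 4.45% lower. Gadd45g, a growth arrest gene that the study singled out, had 73.0 and 65.5 normalised counts in U, 64.6 and 42.1 in I, 57.4 and 40.2 in D and 339 and 347 in ID (2.69 ± 0.28 SE, limma adjusted p = 2.0e-07). Cyr61, a matricellular protein, had 183 and 207 in I and 662 and 706 in ID (1.81 ± 0.18 SE, adjusted p = 1.2e-07). Of 19 germ layer regulators tested, 3 were called higher and none lower by limma, edgeR or DESeq2, with 3 lower at an unadjusted p under 0.05, beside the same 4.04% and 4.45% of all genes. The mesendoderm gene Gsc had 61.7 and 56.6 in I and 257 and 275 in ID (2.15 ± 0.24 SE, adjusted p = 6.9e-07), and Wnt3, the ligand of gastrulation, had 31.4 and 31.6 in I and 109 and 154 in ID (2.00 ± 0.35 SE, adjusted p = 9.1e-05). Gadd45g, Gsc and Wnt3 were near the U level in I and in D and stood apart in ID only.

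Imprinted genes, which are expressed from 1 parental allele and often lie near CTCF sites, counted 9 called higher and 2 called lower of 42 tested, where 4.04% and 4.45% of all genes were. Igf2, the growth factor silenced on the maternal allele by a CTCF-bound insulator, had 181 and 171 normalised counts in U, 108 and 90.6 in I, 509 and 416 in D and 517 and 620 in ID (log2 fold change of ID over I 2.51 ± 0.17 SE, limma adjusted p = 1.1e-09). D and ID were both above U and I, and both were called above U. Igf2os lies antisense to Igf2, and reads from the 2 cannot be told apart unless strand was used in counting, which is not given in the sources used here.

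Peg10, a retrotransposon-derived gene, had 1292 and 1096 normalised counts in U, 489 and 393 in I and 2001 and 2472 in ID (2.34 ± 0.13 SE, limma adjusted p = 4.1e-11). Its neighbour Sgce had 71.8 and 55.6 in U, 12.8 and 14.6 in I and 96.5 and 74.9 in ID (2.55 ± 0.31 SE, adjusted p = 2.0e-06). Both thus fell in I and came back. The noncoding RNAs Rian (674 and 508 in I, 1960 and 1991 in ID, 1.75 ± 0.13 SE) and Mirg (18.6 and 37.2 in I, 114 and 128 in ID, 2.15 ± 0.36 SE) of the Dlk1 domain were newly higher, as was Mkrn3 (1.77). Cdkn1c, a cell cycle inhibitor, was higher in I than in U and higher still in ID (1.02), though not called without ID replicate 1 (0.93, adjusted p = 0.000588). The growth inhibitor Grb10 (-1.19) and the silencing RNA Kcnq1ot1 (-1.65) were lower. Grb10 was not called without ID replicate 1 (-0.90, adjusted p = 9.8e-06). Kcnq1ot1 was not called without ID replicate 2 (-1, adjusted p = 0.033) or without I replicate 2 (-1.54, adjusted p = 0.0138).

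Among the newly lower genes, the largest falls were from low levels. Ceacam16, an adhesion protein, had 30.8 and 27.2 normalised counts in U, 72.8 and 89.8 in I and 7.06 and 0 in ID (log2 fold change of ID over I -4.85 ± 0.65 SE, limma adjusted p = 5.4e-06). H2-Ab1, a chain of the class II histocompatibility complex, had 93.5 and 133 in U, 96.1 and 71.2 in I and 4.12 and 4.24 in ID (-4.01 ± 0.36 SE, adjusted p = 4.2e-08). H2-Q6, of class I, fell by 4.54 on the log2 scale, but belongs to a family of near-identical copies and is uncertain. Lipc, hepatic lipase, had 51 reads in I and none in ID (at least 14.2-fold lower with 3 reads allowed over the ID group, exact interval from 11.2), and Cybb, the catalytic subunit of the phagocyte oxidase, 40 and none (at least 11.2-fold lower, exact interval from 8.67).

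The I over ID ratio of reads was 20.1 for Cox4i2 (95% exact counting interval 6.61 to 99.8), 29.3 for Pde6a (7.82 to 247) and 25.1 for Fitm1 (6.66 to 212). The thymic regulator Aire had 30.3 and 29.9 normalised counts in I and 5.30 and 0 in ID (-3.63 ± 0.67 SE), and Acsbg1 33.8 and 25.9 in I and 4.12 and 0 in ID (-3.76 ± 1.04 SE). Acsbg1 was not called without ID replicate 2 (-2.58, adjusted p = 0.0678) or I replicate 2 (-3.94, adjusted p = 0.0261), Cybb without I replicate 2 (-3.28, adjusted p = 0.024), and Pde6a without I replicate 1 (-3.40, adjusted p = 0.0114). At high read numbers, Mat2a, which makes S-adenosylmethionine, had 31390 and 31220 in I and 13800 and 12340 in ID (-1.26 ± 0.09 SE, adjusted p = 1.5e-09).

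Many germline genes were lower in ID than in I. Naive embryonic stem cells transcribe a number of genes of germ cells and meiosis at modest levels. Of 34 such genes tested, 20 were called lower in ID than in I and 2 higher, with a median log2 difference of -1.3, where 4.45% of all genes were called lower and the median of all genes was 0.0039. Of the 20, 14 were newly lower, 5 had risen in I and 1, Smc1b, had fallen in I and fell further. The list was drawn up with earlier results of these data known. The libraries are bulk RNA, so that fewer cells with a transcript and less of it per cell cannot be told apart.

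The list covered several functions of the germ line. Dazl, an RNA-binding protein of germ cells, had 1445 and 1550 normalised counts in U, 1618 and 1584 in I, 1920 and 1726 in D and 502 and 408 in ID (log2 fold change of ID over I -1.82 ± 0.11 SE, limma adjusted p = 2.5e-10). The RNA helicase Ddx4 had 776 and 738 in I and 286 and 258 in ID (-1.47 ± 0.13 SE, adjusted p = 3.6e-08). Of the piRNA pathway, which silences transposons, Piwil2 had 609 and 643 in U, 712 and 701 in I, 888 and 1010 in D and 130 and 134 in ID (-2.41 ± 0.13 SE, adjusted p = 4.1e-11). In Dazl and Piwil2 the ID libraries lay below all 6 others of the line. Mael had 298 and 366 in U, 847 and 699 in I and 131 and 120 in ID (-2.61 ± 0.15 SE, adjusted p = 1.3e-10), and Tdrd1 114 and 90.8 in U, 241 and 222 in I and 50.6 and 33.9 in ID (-2.45 ± 0.24 SE). Both rose with CTCF loss and then fell below U, where each was called.

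Of the meiotic chromosome proteins, the cohesin subunit Stag3 had 3132 and 2948 normalised counts in U, 2231 and 2143 in I and 811 and 681 in ID (-1.55 ± 0.10 SE, limma adjusted p = 4.6e-10). Smc1b, its partner in meiotic cohesin, had 673 and 505 in U, 242 and 291 in I and 83.0 and 49.4 in ID (-2.03 ± 0.21 SE, adjusted p = 2.0e-07). The recombinase Dmc1 had 316 and 382 in I and 89.5 and 116 in ID (-1.76 ± 0.20 SE), the synaptonemal protein Sycp1 234 and 162 in I and 54.2 and 79.1 in ID (-1.56 ± 0.25 SE), and Mei1 19.8 and 23.5 in I and 2.94 and 0 in ID (-3.51 ± 0.71 SE). Hormad2 (-1.92), Tex101 (-2.39) and Tex19.1 (-1.17) had risen in I. Tex101, a testis surface protein, went from 285 and 303 in I to 54.2 and 56.5 in ID, near the 83.2 and 71.0 of U.

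The 2 genes called higher were Prss50, a testis protease, and Tdrd12, of the piRNA pathway. Prss50 had 25 and 10.5 normalised counts in I, 41.2 and 89.0 in ID and 99.9 and 107 in D (log2 fold change of ID over I 1.83 ± 0.44 SE, limma adjusted p = 0.0021), and its call was lost without ID replicate 2 (1.29, adjusted p = 0.0563) and without I replicate 2 (1.24, adjusted p = 0.0413). Tdrd12 had 421 and 340 in U, 157 and 125 in I and 460 and 319 in ID (1.44 ± 0.20 SE, adjusted p = 7.7e-06). An LCL ID site lay at the promoter of 7 of the 20 genes called lower, a smaller share than the 52.3% of all genes.

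**Figure D4:**
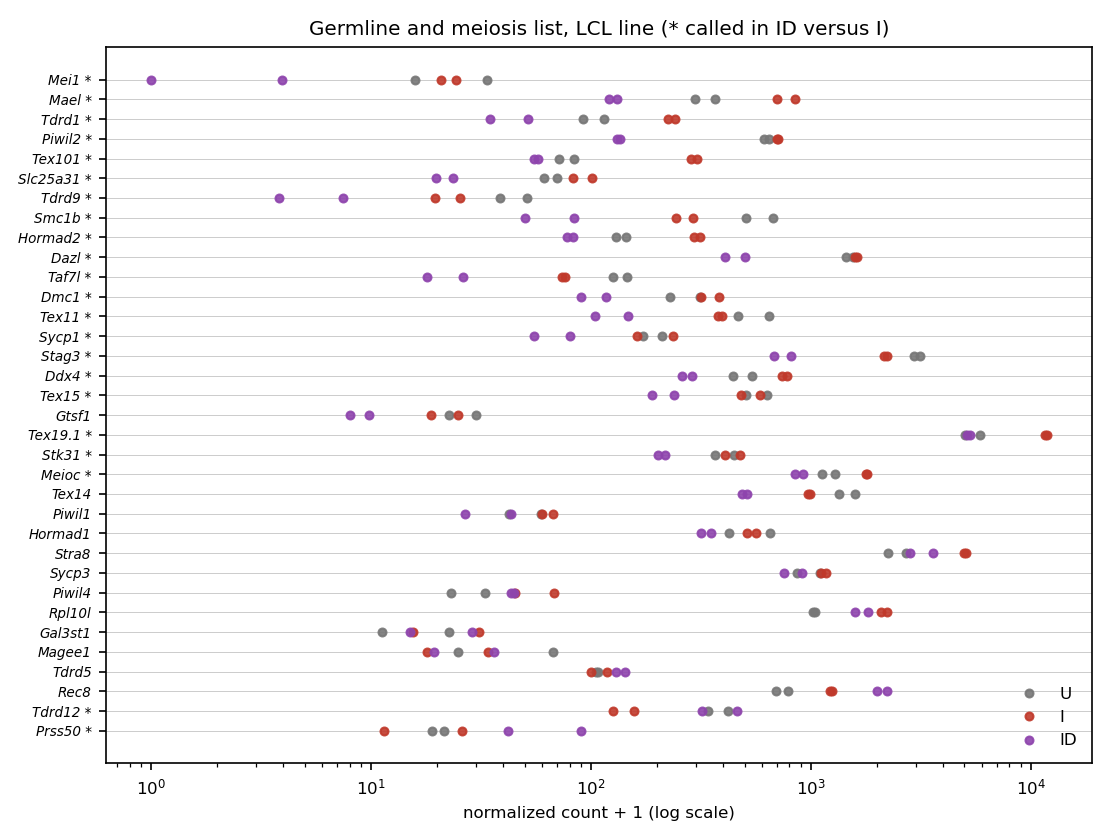
Normalised counts (x axis, log scale, count + 1) of the 34 germline and meiosis genes tested, with a point per library of LCL U, I and ID. Of these genes, 20 were called lower in ID than in I, 2 higher (Prss50 and Tdrd12) and 12 were not called.

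The fall of the germline genes was not called between D and U, where LCL was expressed beside endogenous CTCF. Ctcfl counts were lower in D (384 and 416) than in ID (1120 and 1225). The presence of CTCF and the level of transgene RNA thus cannot be told apart here. None of the 34 was called lower by limma, edgeR or DESeq2 between D and U (3 were lower at an unadjusted p under 0.05) and 2 were called higher, with a median log2 difference of 0.11. Over all 15274 genes, 138 were called lower and 153 higher between D and U. For 18 of the 20 the change from I to ID differed by call from the change from U to D, where 10.4% of all genes did. The 20 were chosen on ID against I, which this difference contains, so the 18 are a description. In the CTCF line, limma called none of the 34 lower in ID than in I (7 at an unadjusted p under 0.05) and 2 higher. In the CLC line 3 were called lower and none higher (3 at an unadjusted p under 0.05), and in the CTCFL line none lower (4 at an unadjusted p under 0.05) and 7 higher. Over all genes, 3.3% were called lower in the CTCF line, 0.795% in CLC and 3.89% in CTCFL, and 1.76%, 1.15% and 3.94% higher. The median log2 difference of the 34 was 0.019 in the CTCF line, -0.345 in CLC and 0.324 in CTCFL. The difference itself was called, with the change more negative in the LCL line, for 17 genes against the CTCF line, 13 against CLC and 23 against CTCFL. Over all genes, 1729 of 16480 (10.5%) differed by call between the LCL and the CTCF line, 1208 (7.33%) between LCL and CLC and 1973 (12%) between LCL and CTCFL.

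A minority of mitochondrially encoded and ribosomal protein genes was called. Of 17 mitochondrially encoded genes tested, 4 were called lower, where 4.45% of all genes were, and none higher by limma (0 at an unadjusted p under 0.05, and 1 higher by edgeR), with a median log2 difference of -0.79. The oxidase subunit mt-Co1 had 108800 and 136500 normalised counts in U, 188200 and 192800 in I and 69300 and 98060 in ID (-1.21 ± 0.16 SE, limma adjusted p = 4.8e-06), and was not called without ID replicate 1 (-0.96, adjusted p = 0.000442). The complex I subunit mt-Nd1 had 74570 and 98380 in U, 153600 and 153900 in I and 57780 and 72170 in ID (-1.25 ± 0.15 SE, adjusted p = 1.5e-06). The summed normalised count of the 37 listed mitochondrial genes was 272800 and 353100 in ID, 613600 and 641300 in I and 365100 and 444100 in U. Of 86 cytosolic ribosomal protein genes, a list added after the data were seen, 5 were called higher and 1 lower with a median log2 difference of 0.55, and of 76 mitochondrial ribosomal protein genes 4 were called higher with a median of 0.37. Both counts lie near the 4.04% of all genes called higher. Rplp0 had 22980 and 22410 in I and 48810 and 43880 in ID (1.03 ± 0.10 SE), Rps29 5271 and 5496 in I and 11280 and 15600 in ID (1.3 ± 0.14 SE) and Rpl36 5694 and 6732 in I and 15960 and 15410 in ID (1.34 ± 0.12 SE). Ribosomal protein genes have many processed copies, and their counts are uncertain. Rplp0 was not called without ID replicate 1 (0.95, adjusted p = 8.6e-06).

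Transcript length moved with the comparison. Between the 20% of genes with the shortest and the 20% with the longest transcripts, the median log2 difference between ID and I went from 0.27 to -0.23, while that between ID replicate 1 and ID replicate 2 went from 0.086 to -0.12. With this trend removed from each library, an alternative chosen after seeing the data, 1194 genes were called between ID and I, 368 were rescued, 796 were newly changed and 19 germline genes were lower. The calls of Atp5k, Cdkn1c, Kcnq1ot1, Rplp0, Rps29 and Slc7a5 were lost under it.

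A list of IAA-responsive genes made without the LCL libraries gave a second view of the rescue. Genes called in the same direction between I and U in both the CTCF and the CTCFL line numbered 1024, 688 lower and 336 higher, and 640 and 277 of these were tested in the LCL line. Of the 640, 439 (68.6%) were also called lower in LCL I than in LCL U. Between LCL ID and LCL I, 155 of the 640 (24.2%) were called higher and 15 (2.34%) lower, where 4.04% of all genes were called higher. Their median log2 difference was 0.46, against 0.0039 over all genes, and 74.5% were above 0. The same genes had a median between ID and I of 0.75 in the CLC line, where 104 were called higher, -0.52 in the CTCF line and -0.25 in the CTCFL line. The last 2 lines chose the list on the same I libraries, so their medians are a description. An LCL ID site lay at the promoter of 85.0% of 153 of the genes called back and of 61.6% of the 484 others.

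Of the 277 genes that rose in both lines, 146 (52.7%) were called higher in LCL I than in LCL U. With LCL, 39 (14.1%) were called lower and 14 (5.05%) higher, where 4.45% of all genes were called lower. The median log2 difference was -0.21 and 57.8% were below 0. In both directions, most of the genes that responded to IAA in the other lines were thus not called between LCL ID and LCL I.

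**Figure D5:**
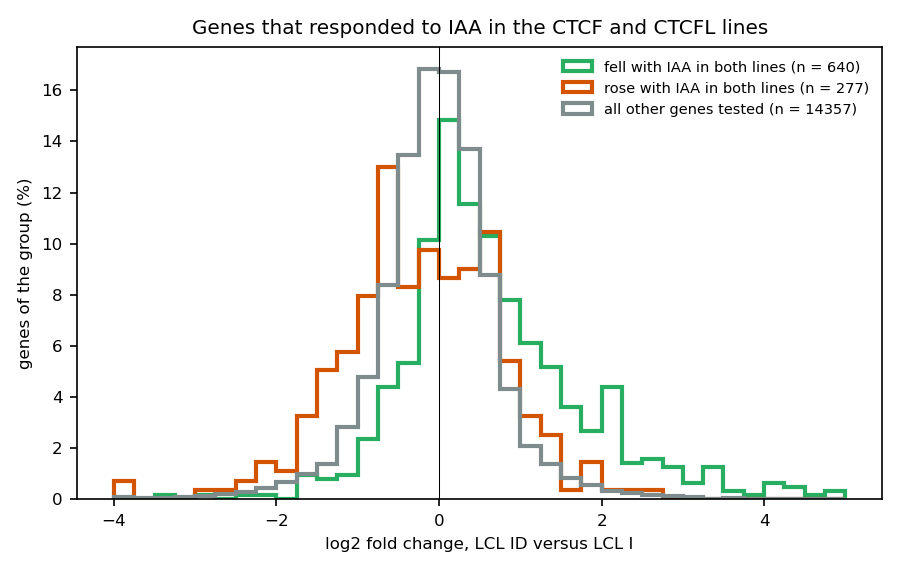
Distribution of the log2 difference between LCL ID and LCL I (x axis, values beyond the axis ends drawn at the ends) as share of genes (y axis) for 640 genes that fell and 277 that rose with IAA in both the CTCF and the CTCFL line, beside the remaining 14357 genes tested. The first group is shifted to the right (median 0.46) and the second slightly to the left (median -0.21).

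The transgene lines differed in which of these genes were called higher in ID than in I. Of the 225 genes that fell in LCL I and rose in LCL ID, 222 were tested in each other line. Full-length CTCF gave a call in the same direction for 65 (29.3%, and 25.7% of the 253 calls of that line among these genes tested in both), CLC for 49 (22.1%, and 27.8% of 176 calls) and CTCFL for 98 (44.1%, and 18.5% of 530 calls). In the opposite direction, 23 were called lower with CTCF, 0 with CLC and 6 with CTCFL. The median log2 difference of these genes was 0.36 with CTCF, 0.84 with CLC and 0.84 with CTCFL. A call depends on the spread between libraries as well, so the numbers called do not rank the lines. Nudt17, for example, had 3.12 in CLC without a call (limma adjusted p = 0.016). Over all genes, the share called higher in ID than in I was 1.76% in the CTCF line, 1.15% in CLC and 3.94% in CTCFL, and the share called lower was 3.3%, 0.795% and 3.89%. The change itself was called larger in LCL than in CTCF for 132 of the 225 and smaller for 0, against CLC for 72 and 2, and against CTCFL for 91 and 6. The genes were chosen for their change in LCL, so larger values there are a description.

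Ctcfl reads, which count the CTCFL parts of each transgene, reached 7570 to 9398 normalised counts in D and 5455 to 5572 in ID of the CTCFL line, and the amount of LCL and CTCFL protein cannot be read from them. Mrps2, Gfm1 and Tex261 were called higher in ID than in I in each of the 4 lines, with log2 fold changes of 1.25 (LCL), 1.25 (CTCF), 1.46 (CLC) and 1.29 (CTCFL) for Mrps2. Ppa2 had 3.41 in LCL, 1.55 in CTCF, 1.51 in CLC and 2.78 in CTCFL. Thsd4 was called in LCL and CTCFL (2.33), and had -1.14 in CTCF and -0.27 in CLC. App was called in LCL and CTCFL (1.44), with 0.85 in CTCF and 0.58 in CLC, and the difference from LCL was called against each line.

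For the newly changed genes, the overlap with the other lines was smaller. Of the 373 newly higher genes, 22 of 357 tested (6.16%) were called higher with CTCF, 9 of 356 (2.53%) with CLC and 70 of 355 (19.7%) with CTCFL, while 18, 3 and 7 were called lower. Of the 525 newly lower genes, 13 of 520 (2.50%), 26 of 513 (5.07%) and 21 of 516 (4.07%) were called lower and 14, 0 and 19 were called higher. Over all genes tested in those lines, 1.76%, 1.15% and 3.94% were called higher and 3.3%, 0.795% and 3.89% lower. For the newly lower genes, the CTCF and CTCFL shares called lower thus lay near those of all genes, and the CLC share lay above it. The fall of the newly lower genes was called larger in LCL for 317 of 524 against CTCF, 222 against CLC and 293 against CTCFL. They were chosen for their fall in LCL, which these differences contain, so larger falls there are a description. Peg10 and Igf2 rose with LCL (2.34 and 2.51) and fell with CTCF (-1.5 and -1.29), and the difference between the 2 lines was called for both genes. Igf2 started from unlike states. In the CTCF line it had 2438 and 2591 normalised counts in U, 5019 to 5635 in I and 2064 to 2273 in ID. In the LCL line it had 181 and 171 in U and 108 and 90.6 in I. Egr1 rose with LCL and CLC (1.96 and 3.62), and had -0.34 in CTCF and -0.36 in CTCFL.

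Dox given to LCL cells that kept endogenous CTCF, which also induced LCL, changed few genes. Ctcfl counts were 384 and 416 in D and 1120 and 1225 in ID. A difference between the 2 Dox changes therefore cannot be told apart from one in transgene RNA level. The change from I to ID differed by call from the change from U to D for 1589 of 15274 genes (10.4%), among them 155 of the 225 genes that fell and rose again, 128 of the 139 that rose and fell again, 166 of the 373 newly higher and 338 of the 525 newly lower genes. Each set was chosen on ID against I, which this difference contains, so the counts within the sets are a description.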

How the data were processed

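RNA-seq libraries were poly(A)-selected, directional and sequenced from both ends. Reads were aligned by STAR v2.6 to the GRCm38/mm10 genome. The deposited signal values are counts per gene, each divided by its library's size factor by the authors. The submitters' processing notes also name Trim Galore 0.4.4, Bowtie2, SAMtools 1.3, HTSeq and deepTools without a role. Dividing by the step between low values gave back whole reads in 36 of 38 libraries, with 100% of LCL values of up to 500 reads within 0.1 of a whole number. The authors called FLAG peaks in each replicate with MACS, and the fold enrichment and -log10 q values of peaks are theirs, as deposited.

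Here log2(value + 1) was fitted by limma 3.58.1 (R 4.3.3) with an intensity trend in eBayes, in 1 fit per line over U, I, D and ID and in 1 fit over 4 lines for differences between lines, for genes with a mean of at least 10. Overlapping peaks were merged into sites, which had to hold peaks of each replicate, and promoter windows reached 3 kb. Coordinates and letters came from GRCm38 with GENCODE vM21 (pysam 0.24.0). Genes named were the 10 of largest change in each set without overlap between ID and I, the members of gene lists that were called, the loci singled out by the study, Ctcf and Ctcfl, and others described as chosen for level or after their values were seen. Symbols of predicted genes (Gm, Rik) were counted and not named. The comparison and the gene lists were chosen with earlier results of these data known. Alternatives were other pseudocounts and filters, TMM scaling, other samples in the fit, a replicate block, edgeR 4.0.16 and DESeq2 1.42.0 on recovered reads, other site definitions and leaving out each library. One gene of the lists is not reported here. The fit was tested on simulated data before use.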

Additional observations from a re-analysis of the deposited data

Results flagged for a closer look

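The change made by Dox without CTCF protein (ID over I) differed by call from the change made by Dox with it (D over U) for 1589 genes of the LCL line, in limma's interaction term. The change from I to ID differed by call between the LCL line and the CTCF line for 1729 genes, the CLC line for 1208 and the CTCFL line for 1973. The values below are the interaction, the log2 difference of ID over I less that of D over U, for genes described above. For genes with few reads in I or ID, such as Thsd4, Olfr287, Fitm1 and Mei1, its size depends on the pseudocount.

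Among the genes that fell in I and rose in ID, the differences were 4.33 for Thsd4, 6.53 for Olfr287, 3.96 for Rnf144a, 3.5 for Nudt17, 3.83 for Mrpl23, 3.42 for Mob3b, 3.19 for Hddc3, 3.59 for Ppa2, 3.27 for Ttc5, 3.16 for Iqgap2, 2.97 for Myc, 2.82 for Traf6 and 2.17 for App. They were 2.13 for Gfm1, 2.10 for Chac1, 2.09 for Vps36, 1.96 for Tdrd12, 1.76 for Peg10, 1.6 for Sgce, 1.45 for Lin28a, 1.41 for Tex261, 1.37 for Atp5k, 1.24 for both Rpl36 and Ndufb7 and 1.10 for Mrps2. Among the newly higher genes, they were 3.40 for Rnf43, 3.21 for Gadd45g, 2.96 for Mirg, 2.42 for Gsc, 2.34 for Mkrn3, 1.95 for Atf4, 1.92 for Wnt3, 1.85 for Rian, 1.70 for Ctcfl, 1.36 for Cyr61, 1.13 for Igf2, 1.11 for Ass1 and 1.00 for Nqo1.

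Among the genes that rose in I and fell in ID, the differences were -4.92 for Htra3, -4.69 for Uts2r, -4.46 for Serpinf1, -3.85 for Fbln5, -3.73 for Mael, -3.65 for Cyb5r2, -3.55 for Hfe, -3.44 for B4galnt2, -3.41 for Tdrd1, -3.28 for Slc4a1, -3.03 for Tex101, -2.85 for Bcam, -2.32 for Cyp1a1, -2.15 for Hormad2, -1.77 for Tex19.1 and -1.49 for Lmna. Among the newly lower genes, they were -5.93 for Ceacam16, -4.86 for H2-Q6, -4.25 for Fitm1, -4.01 for Mei1, -3.20 for H2-Ab1, -3.01 for Piwil2, -2.23 for Ddx4, -2.10 for Dazl, -1.84 for Phgdh, -1.61 for mt-Nd1, -1.60 for Slc7a5, -1.5 for Grb10, -1.46 for Thy1, -1.40 for Dmc1, -1.32 for Sycp1, -1.20 for both Stag3 and Mat2a and -1.11 for mt-Co1. Smc1b, lower still in ID, had -2.13.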

How the results depend on the processing

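Of 167 alternatives of the counts and shares, 163 stayed within 1.5 times the reported count or, for shares, within its spread. The 4 others were the share of called genes with an LCL ID site at the promoter, 57.2% as reported (52.3% of all genes), which was 43.7% within 1 kb (39.9% of all), 61.1% and 61.2% with replicate 1 or replicate 2 alone (56.3% and 58.6%) and 51% where -log10 q had to reach 5 (45.3%). It exceeded the share of all genes each time. Leaving out 1 library gave 1108 to 1287 genes called between ID and I, 295 to 384 rescued, 765 to 967 newly changed and 18 to 20 germline genes lower. Of the 1296 calls, 660 were made in every one of these fits. edgeR shared 1244 of them and DESeq2 1247. For the named genes, 1836 of 1878 alternatives kept the direction and the call, 41 lost the call, 1 gained it (Spry4) and none turned the direction. Beside the losses given above, Acsbg1, Kcnq1ot1, Lrrc39, Pcdhga11 and Prss50 were not called without the filter on low values, Pcdhga11 at a pseudocount of 5, Lef1 and Mei1 with I and ID alone in the fit and Rps29 in the fit of all 4 lines. Same-numbered libraries did not deviate together (correlations -0.016 to 0.074), so the numbers do not pair the samples. With a replicate block, 1323 genes were called, 369 were rescued and 918 newly changed, and no call of a named gene changed. With 2 libraries per group and ID replicate 2 at 20497827 reads, genes of few reads are the least certain.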
